A study of Saccharomyces cerevisiae with 3 samples.

Results

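High pressure was set directly against low temperature in the budding yeast Saccharomyces cerevisiae. The comparison used 2 of the 3 arrays of the study: the log2 level of each gene on the high-pressure array minus its log2 level on the low-temperature array. It covered all 6282 genes behind the 6337 rows of the arrays, and the control array took no part in any ratio. The strain was BY4742, a haploid laboratory strain of mating type alpha. The high-pressure group spent 5 h at 25 MPa and 24 °C. The low-temperature group spent 5 h at 15 °C under 0.1 MPa, the pressure of the atmosphere. The 2 groups therefore differed in both pressure and temperature. The control group grew at 0.1 MPa and 24 °C. For each group the RNA of 3 cultures was pooled and hybridised to 1 array, so there was no replicate, no spread between samples and no test, and the differences below describe these arrays. Free-text descriptions of the samples name another strain and 30 °C, against the titles and the design text.

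Hydrostatic pressure and cold both order the lipids of yeast membranes and slow the uptake of tryptophan and the growth of strains that need it from the medium. The DAN/TIR genes encode serine- and alanine-rich mannoproteins that are anchored to the cell wall through glycosylphosphatidylinositol, and several of them are known from cells without oxygen or in the cold. Cold is also known for a late phase in which genes of the general stress response and of trehalose and glycogen storage are transcribed.

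The arrays measured each gene with 15 pairs of a perfect-match and a mismatch probe. The median log2 level was 6.77 under pressure, 6.98 in the cold and 6.43 on the control array. Control levels below are as deposited, so comparisons with them depend on scaling. DAN1, TIR1, TIR3, CYC7, GSY1, EGO4 and TMA10 were not above mismatch on the control array. The median log2 ratio over all genes was -0.12, and the levels of the 2 arrays correlated across genes with Pearson r of 0.984. Genes were above mismatch (a mean excess of perfect-match over mismatch signal at a one-sided 5% level) for 3915 genes under pressure, for 3812 genes in the cold and for 3524 genes on both. In the strain check, LYS2 had levels of 4.08 and 3.75 under pressure and in the cold and URA3 3.96 and 4.00, with neither above mismatch, as for 2 genes that BY4742 lacks. LEU2, also deleted, was above mismatch on neither array, at 6.92 and 7.58. HIS3, whose allele in this strain is an internal deletion, was above mismatch on both, at 8.34 and 7.75. All 4 alpha-specific genes were above mismatch, against 2 of 7 a-specific genes.

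A gene was counted as different when its 2 levels were more than 1.5-fold apart and the higher one reached the 25th percentile of its array, which held for 4807 genes. By this rule 205 genes (4.26%) were higher under pressure than in the cold and 487 genes (10.1%) were lower. That split depends on how the arrays are scaled. With each array centred on its median, 424 genes were higher and 211 lower, and with perfect-match intensities 84 were higher and 822 lower. Of the genes past the threshold in either direction, 29.6% were higher with the deposited values, 66.8% after centring and 9.27% with the intensities. Gene by gene, 69 genes (1.44%) were higher and 150 genes (3.12%) lower past 1.5-fold with the deposited values and in all of the 6 alternatives of scaling and source that could be computed for them. These genes are called higher or lower under every scaling below. Parts of Ty elements, the retrotransposons of yeast, make up 35 of the 205 higher genes and 24 of the 69. They are nearly identical in sequence and may share signal, so the higher genes are not all separate measurements. Counts of list members refer to the deposited values, with the range over the alternatives where it is wide. Shares of a list are of its measured members, and shares over all genes are of the 4807 counted. Counts differed with level. The top quartile of mean level held 145 higher and 120 lower genes, and the second lowest quartile 12 and 171. The shares over all genes are not matched to the level of the genes in a list. Lists were chosen with earlier results of these data known, so their shares are descriptions. STE3, FIG1, PRM5, GLN1, MUP3, URA1, ERG13, ARE1, HXT1, IDP1, CIT2 and MOH1 were past 1.5-fold in every alternative except perfect-match intensities. Ratios of gene lists are also given relative to the median gene, since a change of scale moves that median from -0.23 to 0.15.

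**Figure D1:**
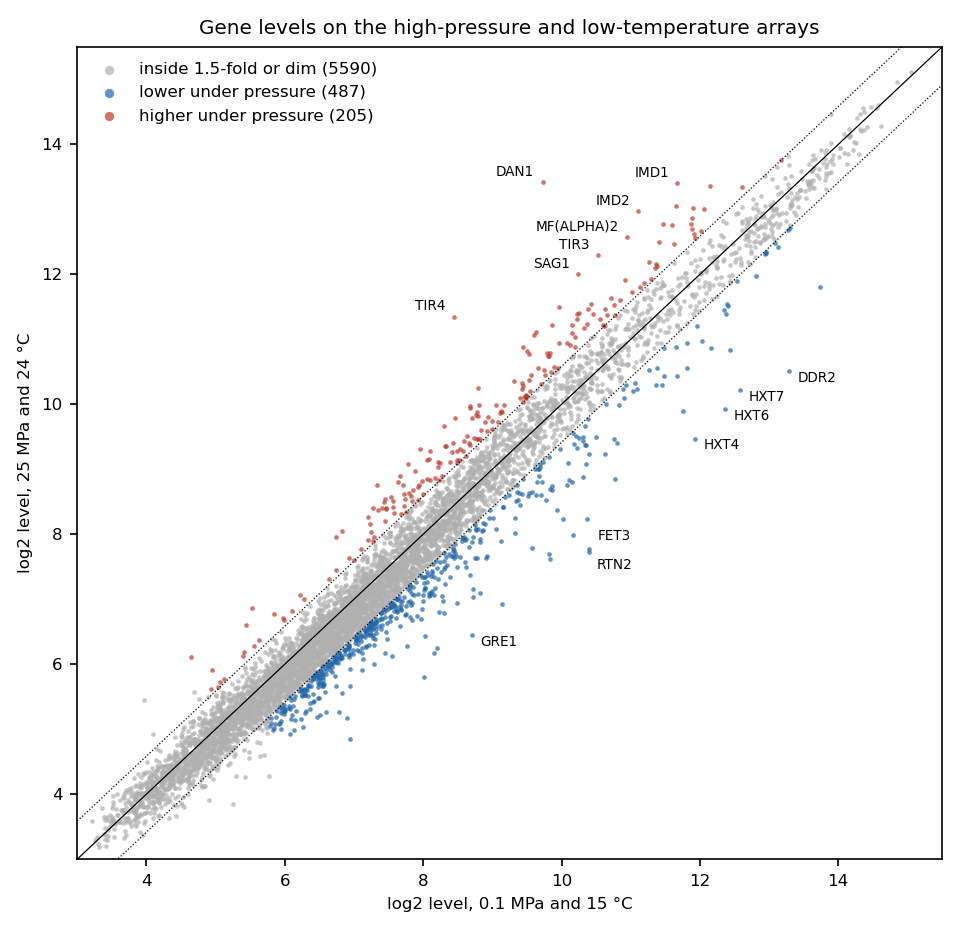
Log2 level of each gene on the low-temperature array (x axis) and on the high-pressure array (y axis), 1 point per gene, with the line of equality and dotted lines at 1.5-fold. The 205 genes higher under pressure (red) and the 487 lower (blue) flank a cloud of 5590 genes inside 1.5-fold or too dim to be counted, and DAN1 and TIR4 stand furthest above the line.

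**Figure D2:**
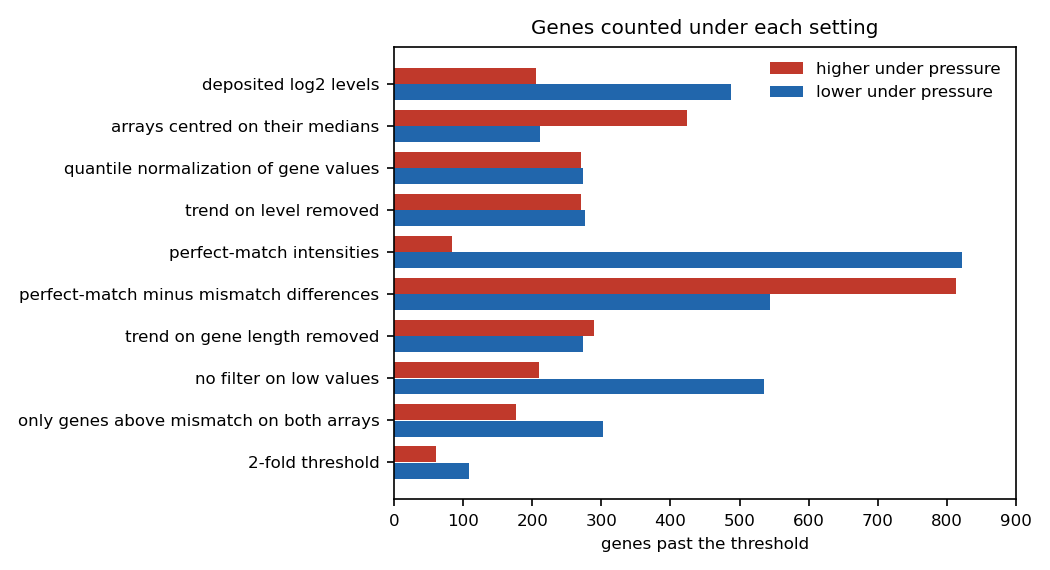
Number of genes past the threshold (x axis, bars from 0) that were higher (red) or lower (blue) under pressure than in the cold, with the deposited log2 levels and under each alternative. Which direction holds more genes differs between the settings, with 205 higher and 487 lower in the deposited values and 424 and 211 after centring.

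The DAN/TIR family of wall mannoproteins held the genes that were furthest above their level in the cold. Of 9 measured members, 4 were higher under pressure (44.4%, against 4.26% of all counted genes), all 4 under every scaling. None was lower in the deposited values. Perfect-match intensities put 2 members lower and the differences of perfect-match and mismatch signal 1. The median ratio of the family was 0.58, which is 0.70 above the median gene and stayed 0.43 to 0.85 above it over the alternatives. DAN1 (YJR150C, chromosome X), which encodes a mannoprotein of cells grown without oxygen, had a log2 level of 13.42 under pressure, 9.73 in the cold and 7.02 on the control array. The ratio of 3.70 is 12.96-fold, and it was the highest of all genes. The mean perfect-match intensity of DAN1 was 13261 under pressure and 1542 in the cold, so the ratio is also seen before normalization.

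TIR4 (YOR009W, chromosome XV) followed, with levels of 11.35 under pressure and 8.44 in the cold, a 7.52-fold difference. In the deposited values its level in the cold was close to the control level of 8.40. TIR3 (chromosome IX) lay at 12.30 and 10.53, 3.41-fold higher under pressure, and TIR1 (chromosome V), a cold-shock mannoprotein gene, at 13.06 and 11.66, 2.64-fold higher. For TIR3 and TIR1 both arrays were above the control levels of 9.59 and 8.12. The family thus held genes that were high on both arrays and differed between them in degree. It also held TIR4, whose deposited level in the cold was close to that of the control.

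The other 5 members were inside the threshold in the deposited values. TIP1, a mannoprotein gene known as temperature-shock inducible, lay just inside it, with 14.48 under pressure and 13.90 in the cold, 1.49-fold apart, and a control level of 12.14. It was past 1.5-fold in 3 of 6 alternatives. TIR2, whose locus lies next to TIR4 by its locus tag, had 10.42 and 10.36, with no array above mismatch. DAN4 was lower under pressure, at 7.73 against 8.21, by 1.39-fold, and past 1.5-fold in 2 of 6 alternatives. DAN3, named PAU24 in the current annotation, was at 8.78 and 8.64, and DAN2, named PAU23, at 6.99 and 7.27 with neither above mismatch. The seripauperins, short relatives of these proteins whose genes are nearly identical to each other and may share signal, showed no such excess. Of 24 measured PAU genes none was higher and 2 were lower (0 to 4 and 0 to 5 over the alternatives). The share lower was 8.33%, near the 10.1% of all counted genes. Their median of -0.25 was 0.13 below the median gene, and ranged from 0.14 below to 0.05 above it over the alternatives.

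**Figure D3:**
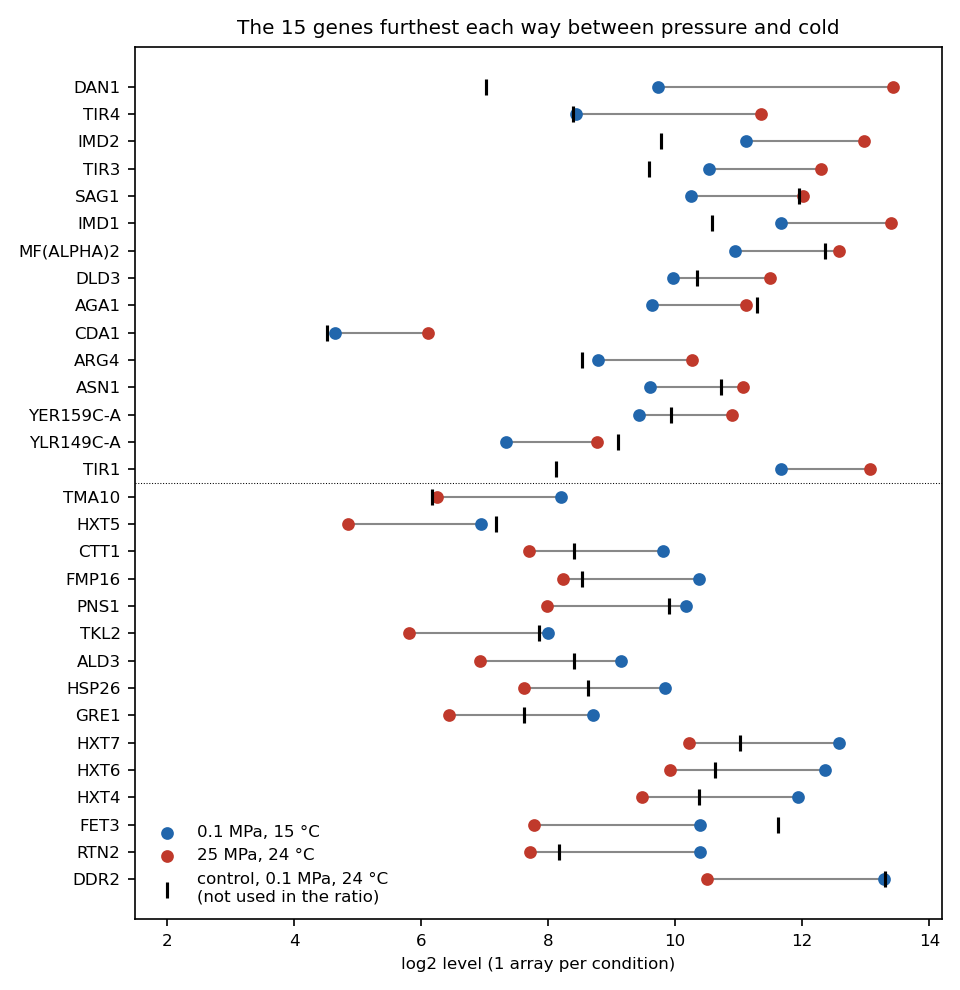
Log2 levels (x axis, 1 array per condition) of the 15 genes furthest above (upper block) and the 15 furthest below (lower block) their level in the cold, with high pressure in red, low temperature in blue and the control level as a black tick. The DAN/TIR genes reach their highest level under pressure, while SAG1 and MF(ALPHA)2 have nearly the same level under pressure and in the control and are dimmer in the cold.

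Mating genes made the next group. All 4 alpha-specific genes, which only cells of mating type alpha transcribe, lay above the median gene. Of the 4, 3 were higher under pressure past 1.5-fold (75%, against 4.26% of all counted genes), 2 under every scaling. SAG1, the cell wall agglutinin of alpha cells, had 12.00 under pressure, 10.24 in the cold and 11.96 on the control array, a 3.39-fold difference between pressure and cold. MF(ALPHA)2, one of the genes for alpha pheromone, had 12.58, 10.94 and 12.36, and was 3.10-fold higher under pressure than in the cold. For both genes the cold array stood apart from the other two. STE3, the receptor for the pheromone of a cells, was 1.71-fold higher under pressure, at 9.89 against 9.12. MF(ALPHA)1, the main pheromone gene, differed by 1.25-fold, at 13.21 against 12.89, and stayed inside the threshold.

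AGA1, the anchor subunit of the a agglutinin, was 2.79-fold higher under pressure, with 11.11 against 9.63 and a control level of 11.28. In the list of pheromone-response genes 6 of 22 were higher under pressure (27.3%, against 4.26% of all counted genes) and none was lower. The list median was 0.34 above that of all genes. Over the alternatives 1 to 9 were higher, fewest with perfect-match intensities, where 84 of all genes were higher. The 9 came with the differences of perfect-match and mismatch signal, where 813 of all genes were higher. SST2, a regulator that damps the pheromone signal, was the member higher under every scaling, by 1.63-fold, at 6.81 against 6.11. FIG1, needed for mating, was at least 2.53-fold higher under pressure, with 6.86 against 5.52, where "at least" marks a gene that was not above mismatch on its dimmer array. It is a bound in the deposited values only. Perfect-match intensities gave smaller differences for some such genes (log2 ratio 0.48 for FIG1) and larger ones for others (-1.35 for INO1). PRM5 was at least 2.34-fold higher, at 8.06 against 6.83. None of the 7 a-specific genes differed past 1.5-fold in the deposited values.

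Genes of amino acid biosynthesis lay mostly above the median gene. Of 57 measured, 54 of them counted, 18 were higher (31.6% of those measured, against 4.26% of all counted genes). Of the 18, 6 were higher under every scaling, and no member was lower. Perfect-match intensities gave 6 higher and 1 lower, and the other alternatives 18 to 29 higher. The median of the list was 0.44 above the median gene, with 48 of its 57 members above that gene, and 0.31 to 0.45 above it over the alternatives. ARG4, the last enzyme of arginine synthesis, had 10.26 under pressure and 8.79 in the cold, 2.77-fold apart. ASN1, an asparagine synthetase, had 11.06 and 9.60, 2.75-fold apart. LYS1, the last enzyme of lysine synthesis, was 2.50-fold higher under pressure and ARO8, an aromatic aminotransferase, 2.23-fold. For these 4 genes the difference held under every scaling.

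Nitrogen and sulfur metabolism gave further single genes. GDH1, the main glutamate dehydrogenase for ammonium assimilation, was 2.49-fold higher under pressure, with 12.78 against 11.47, and GLN1, glutamine synthetase, 1.79-fold higher. GDH2, which runs the reaction towards ammonium, was 1.57-fold lower, at 6.55 against 7.20, but past 1.5-fold in 2 of 6 alternatives. CYS3, an enzyme that makes cysteine from cystathionine, was 2.13-fold higher under every scaling. Among 25 genes of sulfate assimilation and methionine synthesis it was the only one past 1.5-fold in the deposited values (4%, near the 4.26% of all counted genes). Over the alternatives 1 to 8 were higher and 0 to 2 lower. The median of those 25 was 0.32 above that of all genes.

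The amino acid permeases lay the other way. Of 22 measured, 7 were lower under pressure (31.8%, against 10.1% of all counted genes), 5 under every scaling, and 1 was higher (4.55%, against 4.26%). BAP3, a permease for branched-chain and other amino acids, had 9.46 under pressure and 10.76 in the cold, 2.45-fold lower. GAP1, the general amino acid permease, had 8.53 and 9.78, 2.38-fold lower. PUT4, the proline permease, was at least 2.42-fold lower and MUP1, the high-affinity methionine permease, 1.83-fold. MUP3, a low-affinity methionine permease, was the member that was higher, by 1.70-fold.

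Nucleotide synthesis split by enzyme. The IMD genes encode IMP dehydrogenase, which commits purine synthesis to guanine nucleotides. IMD2 had 12.97 under pressure and 11.11 in the cold, 3.64-fold higher, with a control level of 9.78, and IMD1, which is nearly identical to it in sequence and may share its signal, was 3.31-fold higher. IMD3 and IMD4 were 1.59-fold and 1.69-fold higher, though not with perfect-match intensities. Other purine genes were lower under pressure. HPT1, which salvages hypoxanthine and guanine, was 2.47-fold lower, at 8.02 against 9.33, and ADE17, an enzyme of the last steps to IMP, 2.01-fold lower. In all, 3 of 27 purine genes were higher (11.1%) and 6 were lower (22.2%), against 1 and 12 with perfect-match intensities and 4 and 3 after centring. Of all counted genes 4.26% were higher and 10.1% lower.

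Of the 18 pyrimidine genes 4 were higher under pressure and 2 lower, or 3 and 4 with perfect-match intensities. The deposited shares were 22.2% and 11.1%, against 4.26% and 10.1% of all counted genes. The higher ones included 3 steps of the route to UMP. URA4, dihydroorotase, was 2.42-fold higher, at 9.94 against 8.67. URA2, the first enzyme of the route, was 2.13-fold higher, at 8.54 against 7.46, and URA1, dihydroorotate dehydrogenase, 1.99-fold. URA8, a CTP synthase, was 1.90-fold higher. RNR1, the large subunit of ribonucleotide reductase, was at least 1.71-fold lower, past 1.5-fold in 4 of 6 alternatives.

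In the ergosterol pathway, which makes the main sterol of yeast membranes, 8 of 23 genes were higher under pressure, none was lower, and 21 lay above the median gene. The share higher was 34.8%, against 4.26% of all counted genes. The differences were small: the largest were 1.81-fold for ARE1, a sterol acyltransferase, and 1.79-fold for ERG13, HMG-CoA synthase. None of the 8 kept 1.5-fold with perfect-match intensities, and 9 to 12 genes were higher in the other alternatives. The list stayed 0.30 to 0.51 above the median gene over the alternatives, but its own median was 0.38 with the deposited values and 0.07 with perfect-match intensities. NCP1, the reductase that feeds electrons to sterol-forming cytochromes, was 2.17-fold higher under pressure, with 11.55 against 10.43, under every scaling. OLE1, the fatty acid desaturase, was 1.55-fold lower under pressure, at 12.32 against 12.95, and passed 1.5-fold in 1 of 6 alternatives. INO1, inositol phosphate synthase, was at least 2.20-fold lower.

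Of the lists described here, general stress genes held the largest share of genes lower under pressure than in the cold. Of 30 measured, 20 were lower (66.7%, against 10.1% of all counted genes), 15 of them under every scaling (3.12% of all counted genes), and 1, MOH1, was higher. The list was chosen with earlier results of these data known, so this contrast is a description. The median ratio was -0.95, which is 0.83 below the median gene. DDR2, a stress gene first known from DNA damage, had 10.51 under pressure, 13.29 in the cold and 13.31 on the control array. It was at least 6.89-fold lower under pressure than in the cold, and its cold and control levels were nearly equal. RTN2, a reticulon-like protein gene, had 7.72, 10.39 and 8.17 and was 6.37-fold lower under pressure than in the cold.

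GRE1, a gene known from osmotic stress, was 4.78-fold lower under pressure, at 6.44 against 8.70. ALD3, a cytoplasmic aldehyde dehydrogenase, was 4.63-fold lower, at 6.93 against 9.14. CTT1, cytosolic catalase, was 4.35-fold lower, at 7.69 against 9.81, with a control level of 8.40 between them. These genes were thus above the control level in the cold and below it under pressure. HSP12, a membrane-associated stress protein, differed in this: its levels were 11.80 under pressure, 13.74 in the cold and 11.61 in the control, so the pressure level was close to the control one.

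Among the heat shock proteins and chaperones the direction differed between members, with 3 of 28 higher and 4 lower (0 to 9 and 3 to 5 over the alternatives). The deposited shares were 10.7% and 14.3%, against 4.26% and 10.1% of all counted genes. The list median was 0.16 above that of all genes. HSP26, a small heat shock protein that holds unfolded proteins, was at least 4.65-fold lower under pressure, with 7.62 against 9.84. HSP31 was 1.74-fold lower under every scaling. SSA4, a stress-induced Hsp70, was 1.61-fold lower in the deposited values but past 1.5-fold in 0 of 6 alternatives. SSA2, a constitutive Hsp70, was 1.62-fold higher under pressure, HSP10, a mitochondrial chaperonin, 1.82-fold, and CPR6, an Hsp90 co-chaperone, at least 1.72-fold. The 3 higher genes were past 1.5-fold in every alternative except perfect-match intensities.

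Storage carbohydrate genes were lower under pressure as well: 9 of 20 (45.0%, against 10.1% of all counted genes), with 6 under every scaling and none higher. PGM2, phosphoglucomutase, had 8.77 under pressure and 10.09 in the cold, 2.50-fold lower. GSY1, a glycogen synthase, was 2.38-fold lower, at 7.67 against 8.92, and its control level was 5.64. TSL1, a subunit of the trehalose synthase complex, was at least 2.34-fold lower and GPH1, glycogen phosphorylase, 1.96-fold. GSY1, GPH1 and PGM2 were above the control level on both arrays. RGI1, a gene known from respiratory growth, and EGO4 had the same pattern with wider gaps. RGI1 had 8.85 under pressure, 10.77 in the cold and 5.62 in the control, and EGO4 9.90, 11.75 and 6.21.

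**Figure D4:**
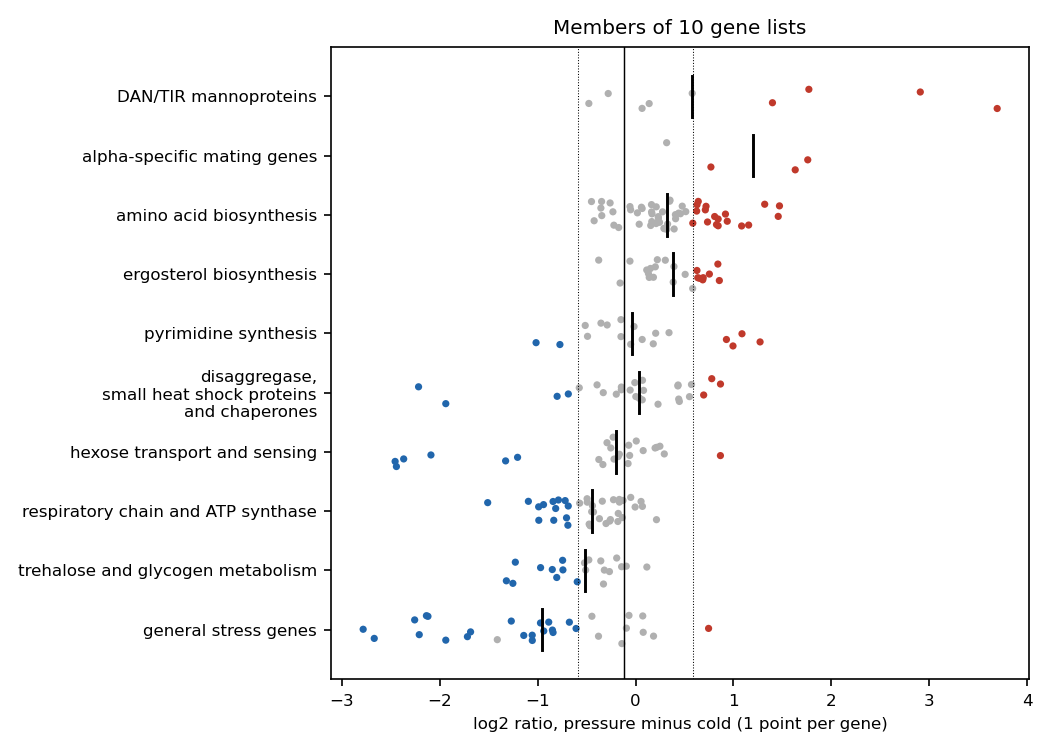
Log2 ratio, pressure minus cold (x axis), of each measured member of 10 gene lists, 1 point per gene, red and blue where counted as higher or lower. Short bars are the list medians, the solid line is the median of all genes at -0.12 and dotted lines mark 1.5-fold. The points of the general stress genes reach to -2.78 (DDR2) and those of the DAN/TIR genes to 3.70 (DAN1).

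Hexose transporters differed between members in direction. HXT4, a transporter for low to moderate glucose, had 9.47 under pressure, 11.93 in the cold and 10.37 in the control, 5.49-fold lower under pressure than in the cold. HXT6 and HXT7, high-affinity transporters whose sequences are nearly identical and may share signal, were 5.44-fold and 5.17-fold lower. HXT5, which is known from slow growth, was at least 4.26-fold lower, although the difference was smaller with perfect-match intensities, at a log2 ratio of -0.78. HXT1, the low-affinity transporter of cells with ample glucose, was 1.82-fold higher under pressure, at 11.24 against 10.37, and its control level was 12.96. Of 24 measured genes of hexose transport and sensing, 15 were bright enough to be counted and 9 were above mismatch on either array. In the list 6 genes were lower (25.0%, against 10.1% of all counted genes) and 1 was higher (4.17%, against 4.26%). The 6 include both HXT6 and HXT7.

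Glucose and energy metabolism gave smaller differences. The hexose kinases HXK1 and GLK1, known to be held down by glucose, were 2.39-fold and 1.99-fold lower under pressure. In the respiratory chain and ATP synthase 13 of 38 genes were lower (34.2%, against 10.1% of all counted genes), 5 under every scaling, and none was higher. The list median was 0.32 below that of all genes. The number lower ranged from 7 with the differences, where 1 was higher, to 21 with perfect-match intensities. COX4 and COX5A, subunits of cytochrome c oxidase, were 1.99-fold and 1.92-fold lower, and INH1, an inhibitor of ATP hydrolysis by the synthase, 2.14-fold. CYC7, the cytochrome c isoform of cells without oxygen, was 3.31-fold lower under pressure, with 7.09 against 8.82 and a control level of 5.32. Of the 20 listed hypoxic genes and isoforms, 19 of them counted, 1 was higher (5.00%) and 2 were lower (10.0%). These shares were near the 4.26% and 10.1% of all counted genes.

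In the tricarboxylic acid cycle 4 of 21 genes were higher and 1 was lower, against 1 and 4 with perfect-match intensities and 8 and 0 after centring. The deposited shares were 19.0% and 4.76%, against 4.26% and 10.1% of all counted genes. PYC1, pyruvate carboxylase, was 2.04-fold higher under every scaling, at 8.38 against 7.35. IDP1, mitochondrial isocitrate dehydrogenase, was 1.98-fold higher and CIT2, the peroxisomal citrate synthase, 1.79-fold. DLD3, a D-lactate dehydrogenase of the cytosol, was 2.88-fold higher under every scaling, at 11.49 against 9.96.

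Of 32 genes of iron, copper and zinc uptake, 24 were bright enough to be counted. Of those 24, 2 were higher and 4 lower, beside 4.26% and 10.1% of all counted genes. In all, 26 of the 32 were inside the threshold or dim. FET3, the multicopper oxidase of high-affinity iron uptake, had 7.78 under pressure, 10.40 in the cold and 11.61 in the control, 6.15-fold lower under pressure than in the cold. FTR1, the permease that works with FET3, had 7.90, 9.12 and 10.06 and was at least 2.33-fold lower, and SIT1, a siderophore transporter, 2.11-fold lower. For these 3 genes both arrays were below the control. The copper metallothionein genes CUP1-1 and CUP1-2, which are copies of each other, were 2.34-fold and 2.16-fold higher under pressure, and both were higher in the cold than in the control.

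Cell wall proteins outside the DAN/TIR family were mixed. CWP1, a mannoprotein of the wall, was 3.04-fold lower under pressure, with 10.83 against 12.44. PIR3, a wall protein with internal repeats, was 2.63-fold lower, at 9.23 against 10.63, and SPI1, a wall protein known from stress, 2.05-fold. GSC2, a glucan synthase subunit used in stress and sporulation, was 2.00-fold lower, and KNH1, which acts in the synthesis of beta-glucan, at least 2.67-fold. UTR2, which links chitin to glucan, was 1.92-fold higher under every scaling. Of 21 listed wall proteins 4 were lower (10 with perfect-match intensities) and 2 were higher, the latter being SAG1 and AGA1. The deposited shares were 19.0% lower and 9.52% higher, against 10.1% and 4.26% of all counted genes.

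Counts of translation genes depended on the source of the values. Of 138 cytosolic ribosomal protein genes 9 were lower (6.52%, against 10.1% of all counted genes) and none was higher. With perfect-match intensities 62 of them were lower, and after centring 2, and the median was 0.08 to 0.34 below the median gene over the alternatives. RPL22B was furthest, 2.43-fold lower at 9.07 against 10.36. Among 72 mitochondrial ribosomal protein genes 7 were lower (9.72%), from 2 to 12 over the alternatives. Among 50 ribosome biogenesis genes 6 were lower (12.0%), from 3 to 7. Of all counted genes 10.1% were lower. NSR1, a nucleolar protein gene known from cold shock, was 2.00-fold lower under pressure, at 9.09 against 10.09, with a control level of 11.47. None of the 35 translation factor genes and none of the 24 subunit genes of RNA polymerases I and III was past 1.5-fold in the deposited values. The histone genes were all lower under pressure, by log2 ratios from -0.91 to -0.12, with 2 of 10 past 1.5-fold, and 9 with perfect-match intensities and 1 after centring. HHO1, the linker histone gene and one of the 2, was above mismatch on neither array. Not all stayed lower: the ratios of HHF2 and HHT2 reached 0.02 and 0.09 in an alternative.

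**Figure D5:**
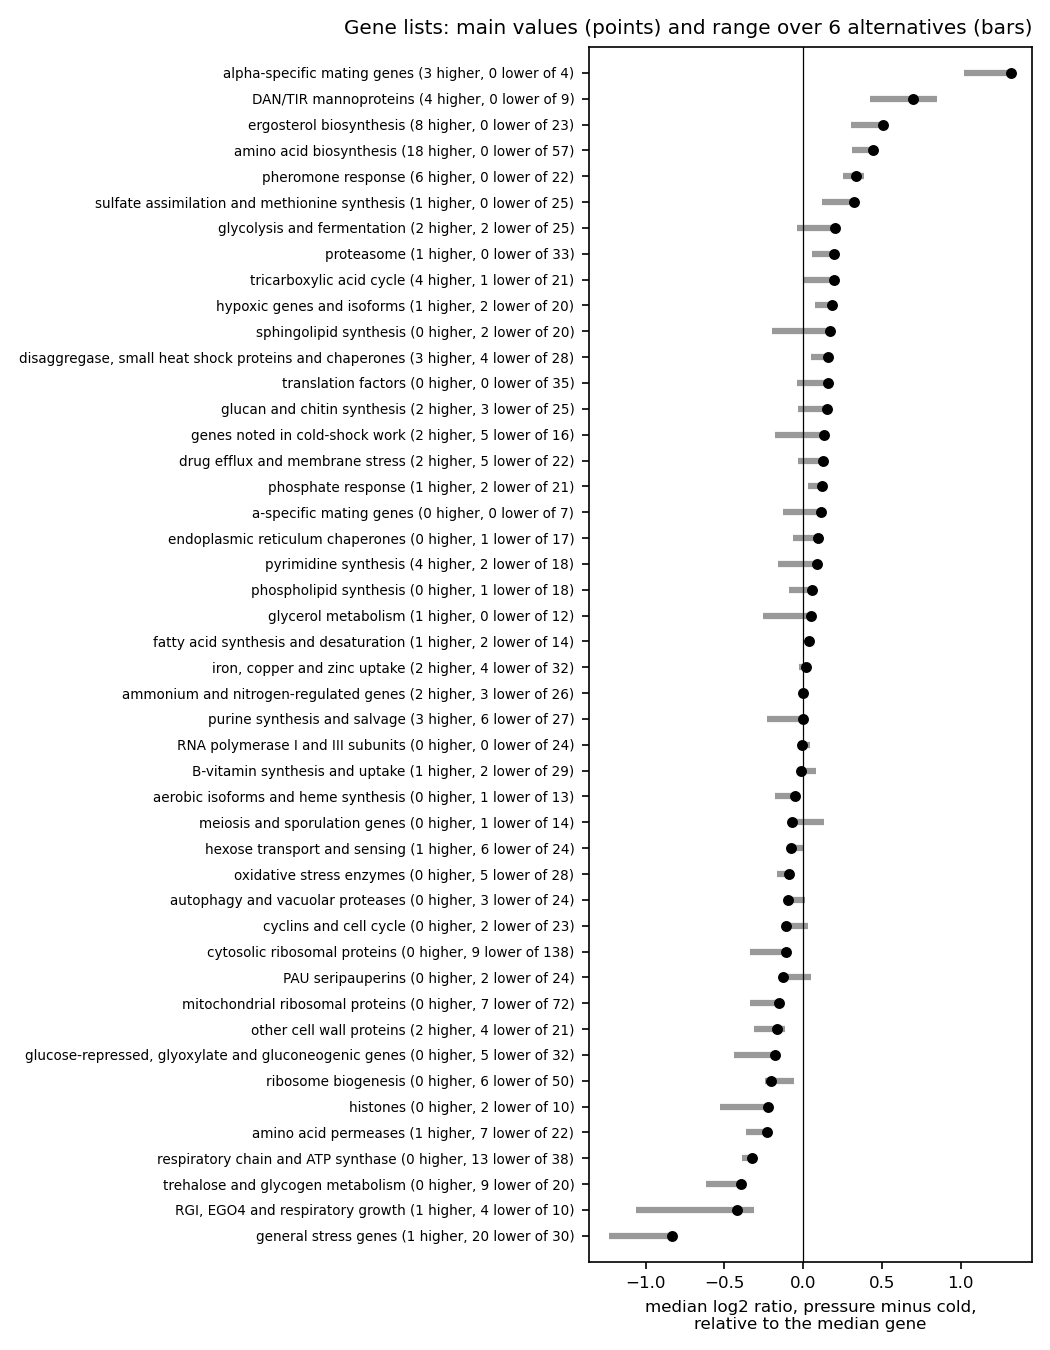
Median log2 ratio of each gene list, pressure minus cold, relative to the median of all genes (x axis), as points, with grey bars for the range over the 6 alternatives of scaling and source. Alpha-specific genes (1.32) and DAN/TIR genes (0.70) are furthest right and general stress genes (-0.83) furthest left, and the bars of these 3 lists do not reach 0.

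The lists together held 1187 genes. They took in 76 of the 205 genes that were higher under pressure and 140 of the 487 that were lower. Among the 15 highest and 15 lowest genes, those in no list included CDA1, a chitin deacetylase of the spore wall, which was 2.78-fold higher under pressure at 6.11 against 4.64. PNS1, a membrane protein of unsettled function, was 4.56-fold lower under pressure, at 7.98 against 10.17. TKL2, the minor transketolase, was at least 4.59-fold lower, with 5.81 against 8.01. TMA10, which associates with ribosomes, was 3.88-fold lower, at 6.25 against 8.20, and its pressure level was close to the control level of 6.17. The genes next after the 15 in each direction had log2 ratios of 1.37 and -1.94.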

How the data were processed

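The series holds 3 one-colour NimbleGen arrays, 1 per condition, each with pooled RNA of 3 cultures. The main values are deposited log2 levels, which the authors made with RMA per the labels and the submitters' processing notes (the scope of the normalization is not stated). The deposited per-array tables hold mean perfect-match and mismatch intensity on a linear scale. They also give, per the file headers, a coefficient of variation, the ratio of SD to mean over the 15 probe pairs of a gene.

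The 53 genes with several rows were averaged. Among the 52 with 2 rows, the log2 ratios of the rows differed by a median of 0.25 and by 1.47 at most. For 9 of these genes the rows differed past 1.5-fold. RefSeq names and gene lengths of assembly R64 were used. The locus tag matched 1723 rows, the symbol 3953 and a synonym 135, and 526 rows kept the name in the files. A gene was above mismatch at t above 1.76 with 14 degrees of freedom. For a gene above mismatch only on its brighter array, "at least" uses the higher of its own dim level and the lowest level among genes above mismatch on that array. The bound is for the deposited values, and alternatives can fall below it. No fold is given where neither array was above mismatch.

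The genes named are the 15 highest and 15 lowest ratios among genes at or above the 25th percentile, above mismatch on the brighter array and past 1.5-fold in perfect-match intensities; any member of lists of up to 12 genes; and up to 4 members each way of longer lists. Lists, members and rules were chosen with earlier results of these data known. Alternatives were median centring, quantile normalization of gene values, lowess trends (fraction 0.3) on level and on gene length removed, perfect-match intensities, perfect-match minus mismatch differences, no filter on low values, only genes above mismatch on both arrays, and a 2-fold threshold. The procedure was tested on simulated data, with changes well past the threshold in brighter genes and little added noise. That test cannot show how the procedure treats differences near 1.5-fold or the spread of these arrays. Promoter sequences and motifs were not analysed here. Python 3.11.15, numpy 2.4.6, pandas 2.3.3, scipy 1.17.1 and statsmodels 0.14.6 were used.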

Additional observations from a re-analysis of the deposited data

How the results depend on the processing

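With 1 array per condition, 3 pooled cultures cannot show the spread between cultures, and dim genes are limited by signal over mismatch. No paired analysis was possible because each condition has 1 array. The counts of 205 higher and 487 lower genes became 424 and 211 with arrays centred on their medians, and 84 and 822 with perfect-match intensities. Perfect-match minus mismatch differences gave 813 higher genes, and a 2-fold threshold 60 higher and 109 lower. Lower genes numbered 273 after quantile normalization of gene values, 277 and 274 with the trend on level or on gene length removed, and 303 among genes above mismatch on both arrays. Of the genes past the threshold in either direction, the share that were higher was 49.8% after quantile normalization, 49.4% and 51.3% with the trends on level and length removed, and 59.9% with the differences. The median log2 ratio over all genes was -0.12 and became 0.089 after centring, 0.0068 after quantile normalization, 0.0032 and 0.00057 with the trends on level and length removed, -0.23 with perfect-match intensities and 0.15 with the differences. The cause of these shifts was not tested. Of 970 values of named genes past 1.5-fold under the 6 alternatives of scaling and source, 783 stayed on their side of the threshold, 180 moved inside it and 7 reversed. With perfect-match minus mismatch differences CTA1 became 0.15, GZF3 0.066, MRP13 0.32, PAU16 0.46, PAU22 0.031 and QCR6 0.15, and with perfect-match intensities PDC5 became -0.051. The tally of 783 is partly set by selection, since the highest and lowest genes were named only if past 1.5-fold with perfect-match intensities. It therefore cannot show how stable the genes past the threshold are as a whole. Among all 205 higher genes 69 were past 1.5-fold with perfect-match intensities too, and among all 487 lower genes 299. Only the medians of the alpha-specific genes (1.20) and the general stress genes (-0.95) were past the threshold, and neither reversed. Some list medians inside it changed sign. That of the tricarboxylic acid cycle went from 0.075 to -0.23 with perfect-match intensities, and that of the PAU genes from -0.25 to 0.20 with the differences.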

Other observations

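The groups in this section were noticed in the values, so their counts describe these 2 arrays only. Genes annotated as parts of Ty elements, the retrotransposons of yeast, were mostly higher under pressure than in the cold. Of 52 such genes, each averaged over its rows, 35 were higher past 1.5-fold (against 4.26% of all counted genes). Of these, 24 were higher under every scaling (against 1.44%), and none of the 52 was lower. The median log2 ratio was 0.89. They are nearly identical in sequence and may share signal, so they are not separate measurements. Genes of the mating-type cassettes were higher too: the 4 alpha genes at MAT and HML, and HMRA2, a gene of the a cassette at HMR. MATALPHA2 had log2 levels of 9.15 under pressure and 8.09 in the cold, 2.09-fold apart, and MATALPHA1 had 9.31 and 8.53, 1.72-fold apart. The copies at these loci share long stretches of sequence and may share signal. MATALPHA1 was inside 1.5-fold with perfect-match intensities.

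Paired isoforms differed in the pentose phosphate pathway. The 4 minor isoforms TKL2, NQM1, GND2 and SOL4 were lower under pressure under every scaling (against 3.12% of all counted genes). NQM1 was above mismatch on neither array. The major isoforms were inside 1.5-fold in the deposited values, and TKL1 was past it in 3 of 6 alternatives. TKL1 had 12.35 and 11.81, TAL1 11.25 and 11.36, GND1 11.19 and 11.30 and SOL3 9.99 and 9.86 under pressure and in the cold. GND2, the minor phosphogluconate dehydrogenase, was at least 3.22-fold lower under pressure, at 7.03 against 8.72. The ubiquitin-conjugating enzymes UBC4 and UBC5, which are close relatives, lay on opposite sides. UBC4 was 1.79-fold higher under pressure, with 12.47 against 11.62, but not past 1.5-fold with perfect-match intensities. UBC5 was 2.27-fold lower, with 8.68 against 9.86, under every scaling.

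Genes of eisosomes and the SUR7 family, which organise furrows of the plasma membrane, were lower under pressure for 6 of 8. Over all counted genes 10.1% were lower, and 3.12% under every scaling. Of the 6, FMP45, YNL194C and SEG1 were above mismatch on neither array, and 4 were lower under every scaling, with PIL1 past 1.5-fold in 3 of 6 alternatives and SEG1 in 1. SUR7 was 2.35-fold lower, with 10.44 against 11.67, and LSP1 2.11-fold, with 10.30 against 11.37, while PUN1 was inside the threshold at 9.78 against 9.55. The sodium pump genes ENA1, ENA2 and ENA5, near-identical neighbours, were 1.75-fold to 2.11-fold lower under pressure under every scaling.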
